A study of Mus musculus with 12 samples.

Results

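Rps7 and Chchd7 were the 2 genes in mouse liver that met a rule for a shift between their transcripts on a high fat diet. They were selected on the measured shares themselves. For each gene with at least 2 transcripts in the deposited mRNA transcript table and a mean summed level of at least 10 TPM (a relative transcript level, divided by transcript length and scaled to a fixed total per library) over 12 libraries, the share of each transcript in the gene's sum was computed in every library. A gene was kept when the mean share of a transcript differed by at least 0.2, that is 20 percentage points, between the diets and the 4 shares on one diet all lay above or all below the 4 on the other. Of 19252 genes in the table, 3345 met the conditions on level and transcript number, and 2 of these met the rule, which is 0.0598% of the eligible genes. The difference between those diets in the shares of these 2 genes is therefore a description and carries no test of its own below.

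The libraries came from livers of C57BL/6 mice, 4 per group. One group ate a normal fat diet (NFD), the second a high fat diet (HFD), and the third ate the high fat diet and drank water containing N-acetylcysteine, a thiol antioxidant and cysteine donor, at 2 g per litre (NAC_HFD). Feeding lasted 14 weeks in every group, and the labels give the age of all mice as 8 weeks without saying at which point of the study. The series was designed to profile hepatic long non-coding RNA (lncRNA) in a model of fatty liver, and the labels number the libraries without saying whether each is a separate animal, so p-values measure only the spread between these libraries.

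A gene can give several transcripts through the choice of transcription start, splice sites and polyadenylation site. Transcripts of one gene can encode the same protein and differ in untranslated sequence, which can alter stability and translation, or can encode different proteins. Rps7 encodes a protein of the small ribosomal subunit, one of the set of proteins that every growing cell makes in matched amounts. Chchd7 encodes a small protein with paired cysteine motifs, a fold typical of proteins of the mitochondrial intermembrane space.

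All 14 hepatocyte marker genes were above 1 TPM on average, and their summed level was 65440 to 90463 TPM per library. Summed Kupffer cell markers (14 genes) reached 135 to 217 TPM (NFD), 158 to 342 TPM (HFD) and 126 to 218 TPM (NAC_HFD). A list of 12 adipose, muscle and pancreas markers summed to between 10.1 and 17.3 TPM (NFD), 23.9 and 53.8 TPM (HFD) and 21.9 and 31.8 TPM (NAC_HFD). Of the 9 found in the gene table only Cela1 and Cfd averaged 1 TPM or more, and the other 7 reached at most 0.27 TPM in any library. Cela1 stood at 9.71 to 16.9 TPM in NFD, 19.0 to 27.5 TPM in HFD and 20.4 to 31.5 TPM in NAC_HFD. It was thus most of the list sum in NFD and NAC_HFD. Cfd, which encodes adipsin, an abundant adipocyte product, stood at 0.05 to 0.58 TPM in NFD, 4.74 to 32.7 TPM in HFD and 0.11 to 1.75 TPM in NAC_HFD, while Adipoq, which encodes the adipocyte hormone adiponectin, was listed at 0 in 8 of 12 libraries. The part of these cells in the shares below was not tested, and in bulk tissue fewer cells of a type and less RNA per cell cannot be told apart. TPM keeps no read depth, so the precision of a single share is unknown.

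Rps7 (ENSMUSG00000061477) lies on chromosome 12 at 28630847 to 28635953 in the RefSeq annotation of GRCm38.p6. It ranked 340 by mean mRNA level among the eligible genes. The mRNA table gives it 2 transcripts, ENSMUST00000074267 and ENSMUST00000221871, and the lncRNA table gives it 4 more. The RefSeq annotation lists 1 mRNA for Rps7, and which of the 2 transcripts it matches was not examined.

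ENSMUST00000074267 stood at 107, 123, 137 and 79.5 TPM in the 4 NFD libraries. It stood at 54.4, 50.8, 58.5 and 56.1 TPM in HFD, and at 99.2, 53.5, 67.7 and 94.5 TPM in NAC_HFD. Every HFD library was below every NFD library, and the HFD libraries lay within 8 TPM of one another while the other groups spread widely. ENSMUST00000221871 lay the other way round. It stood at 56.2, 38.2, 0 and 33.2 TPM in NFD, at 90.7, 106, 76.1 and 64.3 TPM in HFD, and at 32.5, 89.9, 69.4 and 25.1 TPM in NAC_HFD. The groups NFD and HFD did not overlap here either, and NFD library 3 was listed at 0 for a transcript that was above 30 TPM in the other NFD libraries.

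**Figure D1:**
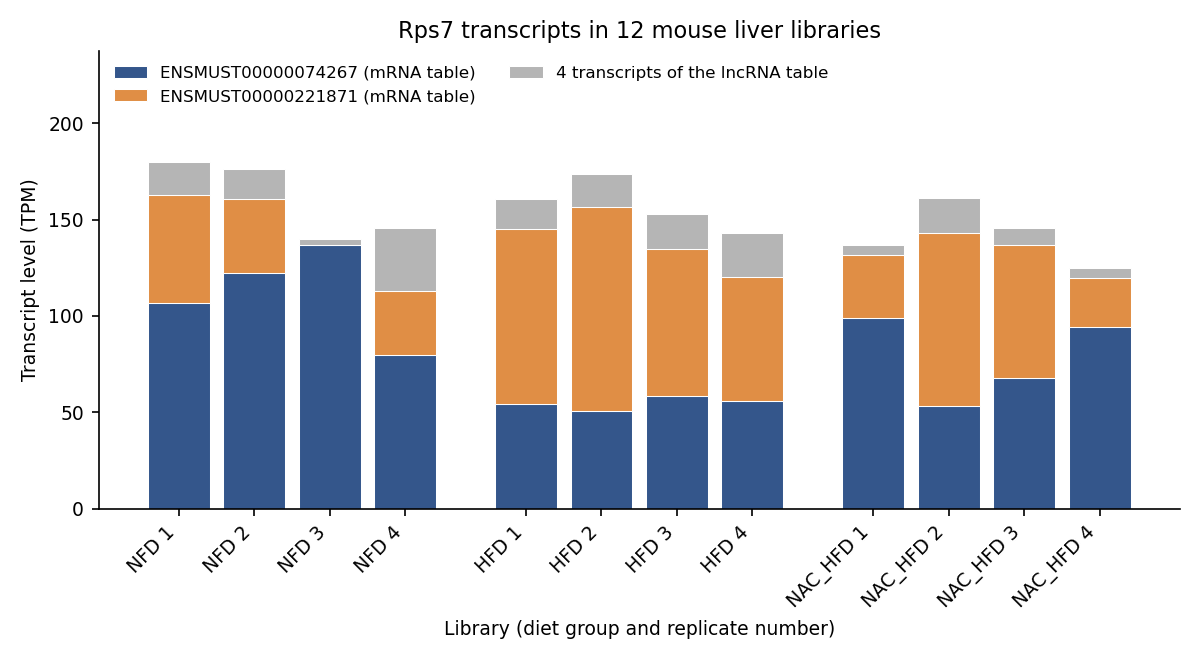
Levels of the Rps7 transcripts in TPM (y axis) in each of 12 liver libraries (x axis), stacked as 2 transcripts of the mRNA table and the sum of 4 transcripts of the lncRNA table. ENSMUST00000074267 makes up most of the bar in all 4 NFD libraries and ENSMUST00000221871 most of the mRNA part in all 4 HFD libraries, while the bars have similar heights of 125 to 180.1 TPM.

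As a share of the 2 mRNA transcripts, ENSMUST00000074267 made up 65.5%, 76.2%, 100% and 70.5% in NFD, a mean of 78.1% ± 15.3 (SD, n = 4). In HFD it made up 37.5%, 32.4%, 43.5% and 46.6%, a mean of 40.0% ± 6.32 (SD, n = 4). The major transcript of Rps7 was thus ENSMUST00000074267 in each NFD library and ENSMUST00000221871 in each HFD library. The mean share differed by -38.1 percentage points (HFD minus NFD). Without NFD library 3, the one listed at 0 for the other transcript, the difference was -30.8 points, and without any other single library it was between -42.3 and -35.6 points.

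The Rps7 total was similar in the groups. The gene stood at 180.1, 176.5, 140.2 and 146 TPM in NFD, at 161, 174, 153 and 143 TPM in HFD, and at 137, 161, 146 and 125 TPM in NAC_HFD. The group means were 161, 158 and 142 TPM, and the ranges of the 3 groups overlapped. On the log2(TPM + 1) scale the fitted difference was -0.02 for HFD against NFD, and the 82 ribosomal protein genes tested had a median of -0.23 in that comparison beside 0.01 over all 11376 genes tested. In that comparison limma called 0 of these 82 genes, beside 2.78% of all genes.

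In NAC_HFD the 4 libraries did not form one level. ENSMUST00000074267 made up 75.3%, 37.3%, 49.4% and 79.0% of the Rps7 mRNA transcripts, a mean of 60.2% ± 20.2 (SD, n = 4). NAC_HFD libraries 1 and 4 lay within the NFD range, library 2 lay within the HFD range, and library 3 lay between the ranges. The mean was 20.3 points above HFD (SE 9.72, 95% interval -1.13 to 41.7), which did not pass the test (limma over 7705 transcripts, adjusted p = 0.54). The mean was 17.8 points below NFD (limma difference -17.8, SE 9.72, 95% interval -39.2 to 3.56, adjusted p = 0.423). These fits share the HFD or NFD libraries that the rule used. The intervals include both no difference from HFD and one about as large as that between the diets, so the position of NAC_HFD for Rps7 was not resolved with 4 libraries. The Rps7 total differed from HFD by -0.15 on the log2 scale (SE 0.11, limma adjusted p = 0.534).

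**Figure D2:**
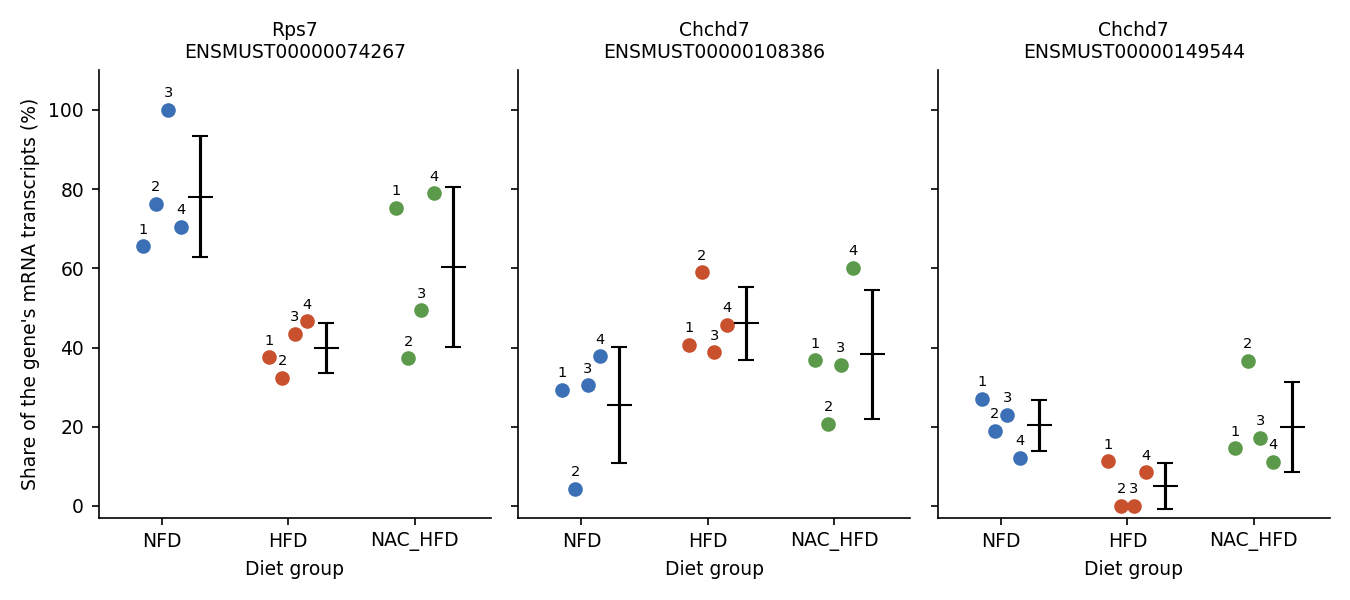
Share of the gene's mRNA transcripts in percent (y axis) for the Rps7 transcript and the 2 Chchd7 transcripts that met the group separation with the largest differences, by diet group (x axis). Points are libraries with their replicate number, and bars beside them give the mean and SD of 4 libraries. HFD and NFD points do not overlap in any panel, as the rule requires for the first 2, and the NAC_HFD libraries are spread widely, from 37.3% to 79.0% for Rps7. The range of NAC_HFD overlaps those of both other groups in each panel, although for ENSMUST00000108386 no single NAC_HFD library lies inside the HFD range.

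The 4 Rps7 transcripts of the lncRNA table summed to 2.5% to 22.7% of the gene total. Most of this was ENSMUST00000222808, which stood at 9.45, 12.7, 1.88 and 24.5 TPM in NFD, at 14.2, 14.4, 14.2 and 18.8 TPM in HFD, and at 0, 11.5, 6.1 and 1.22 TPM in NAC_HFD. The 4 HFD libraries lay above the 4 NAC_HFD libraries and inside the NFD range. No other Rps7 transcript had levels that separated HFD from NAC_HFD. How often lncRNA transcripts separate these groups was not counted, and ENSMUST00000222808 was in no fit. Counting these transcripts in the denominator left the HFD minus NFD difference of ENSMUST00000074267 at -35.0 points, and the groups still did not overlap.

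In the authors' annotation both Rps7 mRNA transcripts have the same best match in the NCBI protein collection and the same Pfam domain, Ribosomal_S7e. Their best Swiss-Prot matches are entries for S7 proteins of different species. Across the 3345 eligible genes, the transcript that gained most and the one that lost most had the same Pfam entry in 66.3% of genes. They had the same entry for the best NCBI match in 34.3%. Pairs that both lack an entry count as the same, and so do genes in which no share changed. The structures of the transcripts were not used here. Ribosomal protein genes have many processed copies in the genome, and the sources used here do not say how reads shared by such copies or by both transcripts were divided, so the Rps7 split is uncertain to that degree.

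In the authors' deposited table for HFD against NFD, ENSMUST00000074267 had a fold of 0.499, which describes the same libraries that chose it. That table lists only transcripts with a p under 0.05 and at least a doubling or halving. Neither ENSMUST00000221871, the Rps7 transcript that gained share, nor ENSMUST00000108386 of Chchd7 is listed there.

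Chchd7 (ENSMUSG00000042198) lies on chromosome 4 at 3938840 to 3951383 in the same RefSeq annotation. Its mRNA transcripts summed to 16.3 TPM on average, a level 8.5 times below that of Rps7. The mRNA table gives it 10 transcripts, of which 4 averaged at least 1 TPM and 1 was listed at 0 in every library. The lncRNA table gives it 7 more. How reads shared by the Chchd7 transcripts were divided is not stated either, so their split is uncertain as well.

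The transcript that met the rule was ENSMUST00000108386. It stood at 5.83, 0.83, 5.07 and 5.06 TPM in NFD, at 6.76, 9.97, 4.75 and 5.25 TPM in HFD, and at 5.9, 4.73, 4.89 and 10.1 TPM in NAC_HFD. Its levels overlapped between all groups, since HFD libraries 3 and 4 lay among the NFD libraries. Its shares did not overlap between NFD and HFD. The share was 29.4%, 4.36%, 30.5% and 37.8% in NFD (mean 25.5% ± 14.6, SD, n = 4) and 40.7%, 59.0%, 38.8% and 45.8% in HFD (mean 46.1% ± 9.12, SD, n = 4). The highest NFD library and the lowest HFD library were 1 point apart.

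The difference of 20.6 points for Chchd7 lay just inside the threshold of the rule. It was 13.5 points without NFD library 2, where the transcript was listed at 0.83 TPM, and 16.2 points without HFD library 2, where it was highest. Without any other single library it was 20.7 to 24.7 points, and it was 17.9 points as a share of the gene total with the lncRNA transcripts. Chchd7 thus met the rule only with both of these libraries and with the mRNA transcripts alone as denominator.

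**Figure D3:**
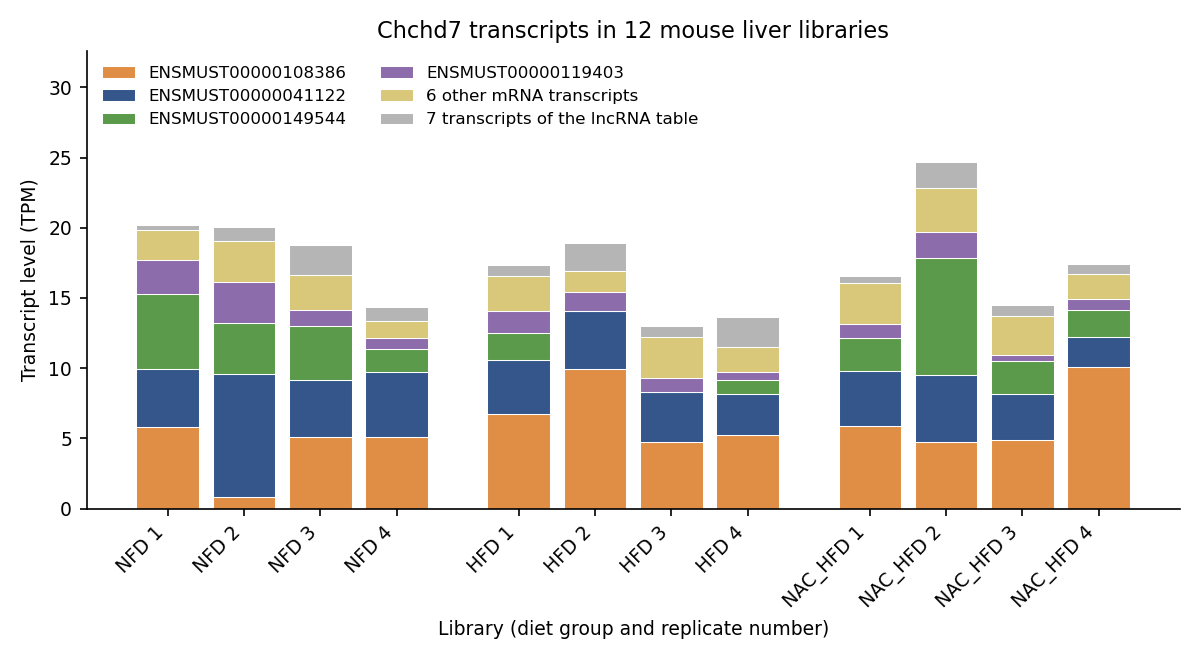
Levels of the Chchd7 transcripts in TPM (y axis) in each of 12 liver libraries (x axis), stacked as the 4 most abundant mRNA transcripts, the sum of the 6 others and the sum of 7 transcripts of the lncRNA table. ENSMUST00000108386 is nearly missing in NFD library 2 (0.83 TPM), ENSMUST00000149544 is at 0 in HFD libraries 2 and 3, and NAC_HFD library 2 has the highest bar (24.7 TPM).

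The transcript of Chchd7 that lost share was ENSMUST00000149544. It stood at 5.38, 3.62, 3.83 and 1.63 TPM in NFD, at 1.88, 0, 0 and 0.98 TPM in HFD, and at 2.33, 8.37, 2.37 and 1.87 TPM in NAC_HFD. Its share was 27.1%, 19.0%, 23.1% and 12.2% in NFD, 11.3%, 0%, 0% and 8.54% in HFD, and 14.5%, 36.7%, 17.2% and 11.2% in NAC_HFD. The 4 HFD shares lay below the 4 NFD shares, by -15.4 points on average, and NAC_HFD library 4 fell just inside the HFD range.

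Against HFD, the share of ENSMUST00000149544 was 14.9 points higher in NAC_HFD (SE 5.39, 95% interval 3.06 to 26.8). Its unadjusted p was 0.0183 and its adjusted p over 7705 transcripts was 0.433 (limma), so it did not pass the threshold. ENSMUST00000149544 was singled out for its low HFD shares, and this fit uses the same HFD libraries. The interval and the unadjusted p are therefore not independent of that choice. All NAC_HFD fits of the Chchd7 shares reuse the HFD or NFD libraries in this way. Against NFD the NAC_HFD mean differed by -0.44 points (SE 5.39, 95% interval -12.3 to 11.4, limma adjusted p = 0.993). Without NAC_HFD library 2, where ENSMUST00000149544 was highest, the differences were 9.35 points from HFD and -6.03 points from NFD. In the authors' deposited table comparing the diets, HFD over NFD, it had a fold of 0.203. In the authors' deposited table for NAC_HFD over HFD it had a fold of 5.65 with an adjusted p of 0.257.

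For ENSMUST00000108386 the NAC_HFD shares were 36.8%, 20.7%, 35.6% and 60.1%, a mean of 38.3% ± 16.3 (SD, n = 4). Libraries 1, 2 and 3 lay within the NFD range and library 4 lay above the whole HFD range. The mean was -7.79 points from HFD (SE 8.84, 95% interval -27.3 to 11.7, limma adjusted p = 0.841) and 12.8 points from NFD (SE 8.84, 95% interval -6.69 to 32.2, limma adjusted p = 0.545). NAC_HFD library 4 was thus on the NFD side for Rps7 and beyond the HFD side for Chchd7, and library 2 was on the HFD side for Rps7 and on the NFD side for Chchd7.

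Among the other Chchd7 transcripts, ENSMUST00000041122 made up 20.6%, 46.0%, 24.6% and 35.0% in NFD, 23.1% to 29.1% in HFD and 13.2% to 24.3% in NAC_HFD. In NFD library 2 it was the major transcript, in place of ENSMUST00000108386. ENSMUST00000119403 averaged 10.1%, 7.63% and 5.41% in NFD, HFD and NAC_HFD, with overlapping groups. ENSMUST00000120732 was listed at 0 in all HFD libraries and in 3 NFD libraries, and at 0.84, 1.66, 0.91 and 0 TPM in NAC_HFD. Each of the remaining 5, the one at 0 everywhere included, averaged at most 7.2% in any group.

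The Chchd7 total stood at 20.2, 20.1, 18.8 and 14.3 TPM in NFD, at 17.3, 18.9, 13 and 13.6 TPM in HFD, and at 16.6, 24.7, 14.5 and 17.5 TPM in NAC_HFD. The group means were 18.3, 15.7 and 18.3 TPM with overlapping ranges. The fitted log2 difference of Chchd7 was -0.21 between HFD and NFD and 0.20 between NAC_HFD and HFD (SE 0.16, limma adjusted p = 0.571). All 10 mRNA transcripts have the same best Swiss-Prot match, mouse CHCHD7, and the same pair of Pfam domains in the authors' annotation, with 3 different best matches in the NCBI collection.

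**Figure D4:**
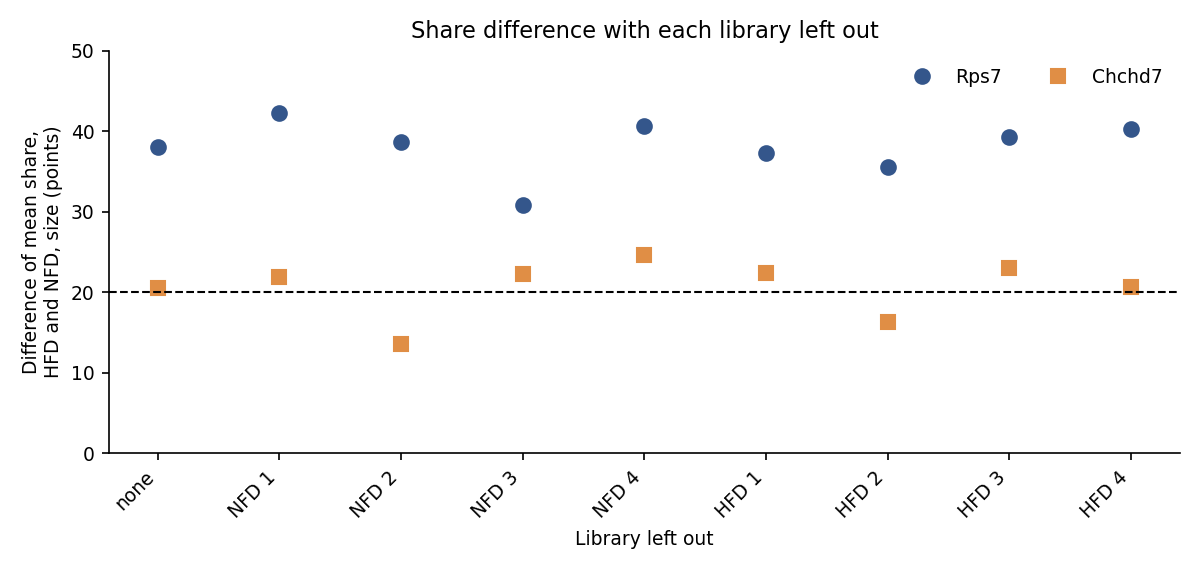
Size of the difference of mean share between HFD and NFD in percentage points (y axis) for ENSMUST00000074267 of Rps7 and ENSMUST00000108386 of Chchd7, with all libraries and with each one left out (x axis). The dashed line is the threshold of 20 points. Rps7 stays above it throughout, at 30.8 points or more, and Chchd7 falls below it without NFD library 2 (13.5 points) and without HFD library 2 (16.2 points).

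Shares of both genes varied more between libraries of one diet than those of most transcripts. The SD within groups was 15.1 points for ENSMUST00000074267 of Rps7 and 13.7 points for ENSMUST00000108386 of Chchd7. The median over 3456 transcripts with a mean share of 20% to 80% was 5.32 points, and 97.9% and 96.7% of them had a smaller SD than the Rps7 and the Chchd7 transcript. These SDs are pooled over the groups, and the Rps7 transcript had an SD of 6.32 points in HFD alone. The rule chose both genes on these same shares, and the compared transcripts were taken by mean share only. The high rank of their SD is therefore not independent of the rule. A value listed at 0 was not rare, since 669 of 7705 transcripts with a mean share of at least 5% (8.7%) were listed at 0 in some library. Of these, 15 transcripts, ENSMUST00000221871 of Rps7 among them, reached at least 30 TPM in another library.

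By the rule, the 2 genes stand at the far end of the share differences, most of which were small. The largest share difference between HFD and NFD was under 10 points in 94.0% of eligible genes, with a median of 2.67 points. Of all 14112 transcripts of these genes, 3.68% had non-overlapping shares between HFD and NFD, and 378 genes had at least 1 such transcript. A difference of at least 20 points was found in 8 genes, but in 6 of them the groups overlapped, for example in Plekhb1 with 38.7 points. Among the genes with non-overlapping groups, Mat2a and Tmem86b stood just outside the threshold.

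**Figure D5:**
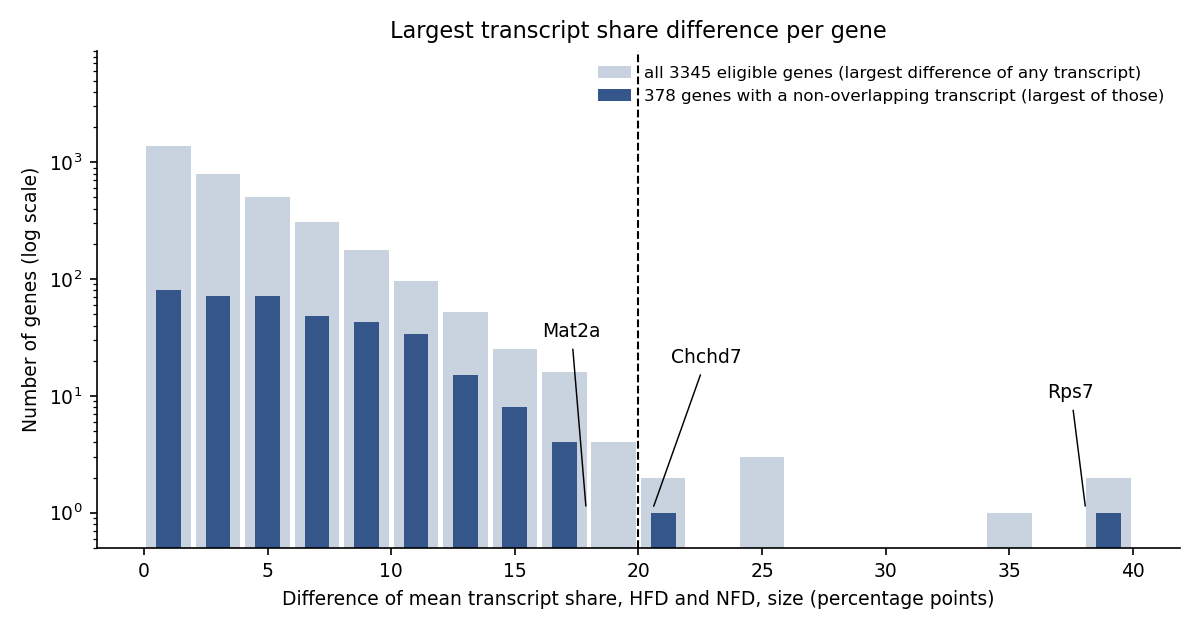
Number of genes (y axis, log scale) by the size of their largest transcript share difference between HFD and NFD in percentage points (x axis, bins of 2 points), for all 3345 eligible genes (light bars) and for the 378 with a transcript whose diets did not overlap, taking the largest of those (dark bars). The dashed line is the threshold of 20 points. Only Rps7 at 38.1 points and Chchd7 at 20.6 points are dark bars beyond it, and Mat2a at 17.9 points is the nearest below.

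Mat2a encodes the enzyme that makes S-adenosylmethionine in most tissues outside the resting hepatocyte. Its transcript ENSMUST00000205335 made up 39.1%, 41.6%, 38.0% and 55.1% in NFD, 20.02%, 32.6%, 26.5% and 23.2% in HFD, and 28.9%, 39.2%, 17.5% and 19.6% in NAC_HFD. Tmem86b encodes an enzyme that breaks down lysoplasmalogen, and its transcript ENSMUST00000055085 made up 43.9%, 58.6%, 57.3% and 46.7% in NFD, 63.4%, 71.4%, 64.7% and 76.9% in HFD, and 70.2%, 73.8%, 75.7% and 84.9% in NAC_HFD. Mat2a differed by -17.9 points and Tmem86b by 17.5 points between HFD and NFD.

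The same rule applied to the other pairs of groups kept more genes, and neither Rps7 nor Chchd7 was among them. It kept 8 genes for NAC_HFD against HFD (0.239% of 3345) and 11 for NAC_HFD against NFD (0.329%). Non-overlapping shares were found for 3.71% and 5.14% of the 14112 transcripts in these comparisons. The limma fit called 0 of 7705 transcripts (0%) in NAC_HFD against HFD, with 733 at an unadjusted p under 0.05, and 9 (0.117%) in NAC_HFD against NFD. In HFD against NFD it called 0 (0%), with 600 at an unadjusted p under 0.05. With a floor of 20 TPM it called 3 of 4345 transcripts in HFD against NFD.

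No other ribosomal protein or Chchd gene met the rule. Of 83 ribosomal protein genes by symbol, 53 were eligible, and 4 of them, Rps7 included, had a transcript whose diets did not overlap (7.55%, beside 11.3% of all eligible genes). The median of their largest difference was 1.15 points, and after Rps7 the next was Rps3 with 11.5 points. Of 4 eligible genes with a Chchd symbol, the next after Chchd7 was Chchd1 with 1.52 points.

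Genes long known for regulated isoforms, such as Tpm1, which encodes a tropomyosin, gave no shift by the rule. Of 45 listed, 29 were eligible, 8 of them (27.6%, beside 11.3% of all eligible genes) had a transcript whose diets did not overlap, and the largest difference was 10.3 points, in Tpm1. The median of their largest difference was 3.15 points, beside 2.67 points over all eligible genes. Of 90 genes of lipid metabolism 54 were eligible, with 11 non-overlapping (20.4%, beside the same 11.3%) and none meeting the rule. A gene with more transcripts has more chances to hold a non-overlapping one. The shares of such genes, here and among ribosomal protein genes, were not adjusted for the number of transcripts per gene.

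The factors that carry out splicing, polyadenylation and decay of transcripts were followed by their gene totals. Of the listed splicing factors 108 were tested, and 1 of them passed the test in HFD against NFD (0.926%, limma, beside 316 or 2.78% of all 11376 genes). This was Snrpb, which encodes the SmB core protein of the spliceosomal small nuclear ribonucleoproteins. Snrpb stood at 24.7, 25.5, 25.2 and 21.8 TPM in NFD, at 18.8, 18.7, 19.3 and 17.6 TPM in HFD, and at 19.1, 18.5, 20 and 17.8 TPM in NAC_HFD. Every HFD library was below every NFD library, and NAC_HFD was at the level of HFD. The log2 difference of Snrpb was -0.37 from NFD to HFD (SE 0.08, limma adjusted p = 0.0291) and 0.02 from HFD to NAC_HFD (SE 0.08, limma adjusted p = 0.942). The first call was lost in 6 of 8 fits with a library left out (adjusted p 0.0195 to 0.0968), namely without NFD library 1, 2 or 3 or HFD library 1, 2 or 4.

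The median log2 difference of the splicing factors was -0.14 in HFD against NFD, beside 0.01 over all genes. Of 20 polyadenylation factors and 16 factors of nonsense-mediated decay, all tested, 0 passed in HFD against NFD, with medians of -0.12 and -0.14. In NAC_HFD against HFD limma called 0 of 11376 gene totals (0%), with 1870 at an unadjusted p under 0.05. In NAC_HFD against NFD it called 601 (5.28%), 200 higher and 401 lower, or 371 higher and 251 lower with median-of-ratios scaling. Among the 601 were 5 splicing factors, which were all lower in NAC_HFD (Esrp2, Hnrnph1, Rbm4, Snrpb and Sf3a1), 1 polyadenylation factor, Pabpn1, and 1 decay factor, Smg5. These 5 are 4.63% of the 108 splicing factors tested, close to the share over all genes. Pabpn1 is 5% of the 20 polyadenylation factors and Smg5 6.25% of the 16 decay factors, also near that share. Both were lower in NAC_HFD, and both passed with median-of-ratios scaling too (limma adjusted p = 0.0252 and 0.0488). With that scaling 2 of the 5 splicing factors, Esrp2 and Hnrnph1, passed the test, and all 5 estimates were below 0. With each NFD or NAC_HFD library left out, 1 to 5 of them passed, and Esrp2 passed in all 8 fits (1 without NFD library 3 or NAC_HFD library 4, 2 without NFD library 1 or NAC_HFD library 3, and 3 without NFD library 2).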

How the data were processed

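Liver RNA of 12 libraries was analysed from the authors' deposited tables of TPM for genes, mRNA transcripts and lncRNA transcripts. Per the submitters' processing notes fastp, HISAT and RSEM were used with GRCm38. The sources used here give neither their versions and roles nor the test behind the authors' comparison tables. Per the file headers, those deposited tables give each transcript's fold (a ratio), its log2 value and its p-value, raw and adjusted.

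TPM has a fixed total per library and keeps no depth, so a value of 0 is given as listed at 0. Shares were computed per gene in percent. limma 3.58.1 in R 4.3.3 (trend and robust options, Benjamini-Hochberg adjustment, threshold 0.05) was fitted to all 12 libraries without covariates, on shares of transcripts with a mean share of at least 5% and on log2(TPM + 1) of genes with at least 1 TPM in at least 4 libraries. A fold on this scale understates the change of low genes. The fits were tested on simulated data.

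Members and gene lists were chosen with earlier results of these data known. Both members are described in full, with the 2 genes just outside the threshold among those with non-overlapping groups. Snrpb and other factors were named after their values were seen. Alternatives covered the floor, the denominator, filters, scaling, pseudocount, each library left out and the replicate number as a block.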

Additional observations from a re-analysis of the deposited data

Results flagged for a closer look

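Of 90 groups of 4 libraries checked over the Rps7 and Chchd7 values, 5 held a library that stood apart from the other 3 by Dixon's criterion, and chance gives about 1 in 20. They were Rps7 transcript ENSMUST00000222808 in HFD library 4 (18.8 TPM, the others at 14.2 to 14.4), Chchd7 ENSMUST00000041122 in NFD library 2 (8.75 TPM, the others at 4.08 to 4.68), ENSMUST00000108386 in the same NFD library 2 (0.83 TPM, the others at 5.06 to 5.83), the share of ENSMUST00000120732 in NFD library 3 (2.89%, the others listed at 0) and ENSMUST00000149544 in NAC_HFD library 2 (8.37 TPM, the others at 1.87 to 2.37). The Chchd7 difference without NFD library 2 was 13.5 points.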

How the results depend on the processing

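Rps7 met the rule under all settings tried and Chchd7 under 8 of 14. These settings reuse the values that chose the genes. Leaving a library out cannot make separate groups overlap, and it lets other genes separate more easily. The rule kept 14 genes with a floor of 5 TPM and 1 (Rps7) with a floor of 20 TPM, 1 with medians in place of means, 11 at 15 points, 1 at 30 points and 3 to 8 with each library left out in turn. With the gene table's total as denominator it kept 2, Rps7 and an unnamed assembled locus. Calls for NAC_HFD against HFD shares were 1 as a log ratio, 5 with no filter on the mean share and 0 without any one library of the 2 groups compared. For HFD against NFD shares, 0 calls became 3 with a floor of 20 TPM and 68 on the transcript level (an alternative chosen after seeing the data). For NAC_HFD against NFD shares, 9 calls became 16 with no such filter, 25 with a floor of 20 TPM, 0 with a replicate block, 183 on the transcript level, and 0 to 26 with each library of these groups left out (0 without NFD library 1, 2 or 3 or NAC_HFD library 3, 1 without NAC_HFD library 4, 3 without 2 and 26 without 1). Gene totals gave 3 calls for NAC_HFD against HFD with the replicate block and 0 to 64 with each library of these groups left out (64, 2 and 3 without NAC_HFD library 1, 2 and 3, and 23 without HFD library 3). For HFD against NFD, 316 became 168 with no filter on low values, 225 with the replicate block and 90 to 298 with each NFD or HFD library left out (142 without NFD library 1, and 90, 129 and 97 without HFD library 1, 2 and 4), and up to 375 without a NAC_HFD library. For NAC_HFD against NFD, 601 became 289 with no filter, 406 with the replicate block, 252 and 295 without NFD library 1 and 3, and 243 and 211 without NAC_HFD library 3 and 4. Libraries with the same number did not clearly deviate together (correlations -0.17 to 0.08 for shares and -0.17 to 0.18 for genes). Libraries with different numbers gave -0.11 to 0.18 for shares and -0.25 to 0.22 for genes. The labels name no pairing, and these values cannot exclude one.

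The NAC_HFD share differences of ENSMUST00000074267 (Rps7) and ENSMUST00000108386 (Chchd7) kept their sign, and none passed the threshold, in the alternatives run. For Rps7 they ranged from 14.0 to 27.9 points against HFD and from -24.1 to -10.2 points against NFD (-10.2 without NAC_HFD library 2, -10.5 without NFD library 3). For Chchd7 they ranged from -15.1 to -1.93 points against HFD (-15.1 without NAC_HFD library 4, -1.93 without NAC_HFD library 2, -3.47 without HFD library 2) and from 5.5 to 18.6 points against NFD (5.5 without NAC_HFD library 4, 5.72 without NFD library 2). Signs did turn for differences from NFD near 0. The share difference of ENSMUST00000149544 went from -0.44 to 2.46 points without NAC_HFD library 4. It also turned without several other single libraries, such as NFD library 3 or NAC_HFD library 3. The Chchd7 total went from -0.02 to 0.07 (log2) with median-of-ratios scaling, and its sign also turned without some single libraries.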
